A study of Caenorhabditis elegans with 6 samples.

Results

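The nlp-29 cluster of the nematode Caenorhabditis elegans is a run of 6 short genes on chromosome V, nlp-27, nlp-28, nlp-29, nlp-30, nlp-31 and nlp-34, that encode small secreted peptides. Features of the array were taken as members where the gene symbol column of the deposited table names one of these genes. Of the 6 genes 5 have a feature, 1 each, among 17137 genes named singly on the array, and 0 features name nlp-34, for which no level can be given. The genes were picked because earlier results of the same arrays had placed nlp-29 and nlp-30 among the features higher in the mutant, so their mutant and wild type values are given as a description and carry no test.

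The arrays compare embryos that lack the microRNAs mir-35 to mir-41 with wild type embryos. The mutant carries the deletion mir-35-41(nDf50) in strain VT2935 without nEx1187, and the wild type is strain N2, with 3 arrays of each. The name nEx1187 is that of an extrachromosomal transgene array, whose content is not stated in the labels. Both groups were grown at 20 degrees Celsius on NGM plates with egg yolk added, and total RNA came from whole embryos of mixed stages released by hypochlorite. A free-text line in the labels puts mutant replicates 1 and 2 at an earlier stage than the other 4 arrays, in terms foreign to nematode development, and was not used. Nothing in the labels says that replicates are separate cultures, so the spread between arrays may be in part technical.

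The peptides of this cluster belong to the innate defence of the worm's skin. The epidermis makes them at a low level in an unharmed animal and raises nlp-29 strongly after infection by the fungus Drechmeria coniospora or after wounding, and nlp-29 is the usual reporter of that response. The signal passes from a G protein-coupled receptor in the epidermis through protein kinase C and a p38 MAP kinase module to a STAT-like transcription factor. Damage to the furrows of the cuticle and high salt are known to raise the gene as well. The mir-35 family consists of embryonic microRNAs with a shared seed that are needed for embryonic development.

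The arrays did not separate first by genotype. Wild type replicate 3 stood apart, with correlations over all features of 0.944 to 0.955 with the mutant arrays and of 0.950 and 0.971 with the other 2 wild type arrays. Wild type replicate 2 lay nearer the mutant arrays (r = 0.984 to 0.987) than wild type replicates 1 and 3 (r = 0.976 and 0.950). Mutant replicates 2 and 3 were nearly alike (r = 0.998), and 12 features differed between them by at least 2-fold. Each cluster value is therefore also given without wild type replicate 3 and with mutant replicates 2 and 3 averaged as 1 sample, the second of these chosen after seeing the data. Over all 22548 features the median log2 difference, mutant minus wild type, was -0.10. Values are the authors' normalized intensities, so a difference is to be read against the rest of the genes measured.

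All 5 measured genes of the cluster had higher intensities on each mutant array than on any wild type array. The difference was largest for nlp-29, at 4.84-fold, followed by 2.83-fold for nlp-30, 2.43-fold for nlp-28, 1.86-fold for nlp-27 and 1.82-fold for nlp-31. Of the 5 features 2, nlp-29 and nlp-30, were among those with a limma adjusted p under 0.05, which 0.124% of all features reached as higher in the mutant. Separation of the groups with the mutant higher was seen in 6.16% of all features. The calls depended on single arrays: 0 of the 5 features passed without mutant replicate 1, 2 or 3 or without wild type replicate 3, 1 (nlp-29) without wild type replicate 1, and 4 without wild type replicate 2. They were also lost, with 0 of the 5 past the threshold, with mutant replicates 2 and 3 averaged, with the replicate number as a block, after quantile normalization again and with 16 added before log2. The background shares stand beside the counts only as background, because the genes were picked from this contrast. The median log2 difference over the 5 features was 1.28. It was 0.96 without wild type replicate 3 and 1.27 with mutant replicates 2 and 3 averaged. In whole embryos a change in the number of cells that express a gene and a change in its RNA per cell cannot be told apart.

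**Figure D1:**
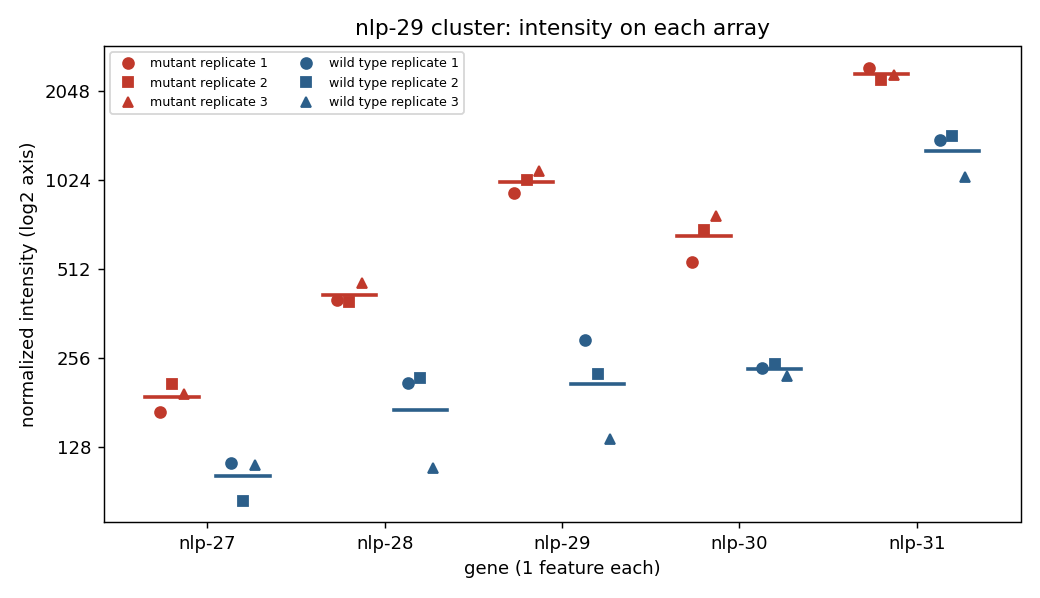
Normalized intensity (log2 axis) of the 5 measured cluster genes on each array, mutant points in red to the left of wild type points in blue, with marker shape giving the replicate and bars the mean of the log2 values. For nlp-29 the 3 mutant arrays sit between 921 and 1093 and the wild type arrays between 136 and 294, and the groups do not overlap for any of the 5 genes.

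For nlp-29, the gene most used to follow the epidermal response, the intensity was 921, 1019 and 1093 on mutant replicates 1, 2 and 3, against 294, 226 and 136 on wild type replicates 1, 2 and 3. The mutant arrays were close to each other, spanning 1.19-fold, and the wild type arrays spread over 2.16-fold with replicate 3 lowest. Mean log2 intensity was 9.98 ± 0.12 in the mutant and 7.70 ± 0.56 in wild type (SD, n = 3 each), a difference of 2.28 ± 0.28 (SE of the limma fit). The lowest mutant array was 3.13-fold above the highest wild type array. The difference ranked 34 among the 22548 features ordered from highest to lowest. It was 1.97 without wild type replicate 3 and 2.24 with mutant replicates 2 and 3 averaged.

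For nlp-30, the next peptide gene along the chromosome, the intensity was 540, 694 and 773 on mutant replicates 1, 2 and 3, against 236, 243 and 223 on wild type replicates 1, 2 and 3. Here the spread lay on the other side: the wild type arrays differed by 1.09-fold and the mutant arrays by 1.43-fold, with mutant replicate 1 lowest. The means were 9.37 ± 0.27 in the mutant and 7.87 ± 0.06 in wild type on the log2 scale (SD, n = 3 each), and the difference was 1.50 ± 0.18 (SE). The lowest mutant array was 2.22-fold above the highest wild type array. Without wild type replicate 3 the difference was 1.46, and with mutant replicates 2 and 3 averaged it was 1.43.

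For nlp-28, which lies on the other side of nlp-29, the intensity was 400.1, 394 and 457 on the 3 mutant arrays, against 210.1, 219.7 and 109 on wild type replicates 1, 2 and 3. Wild type replicate 3 was at about the same distance below its group as for nlp-29, with log2 deviations from the wild type mean of -0.66 for nlp-28 and -0.61 for nlp-29. The difference was 1.28 ± 0.28 (log2 ± SE), from means of 8.70 ± 0.12 in the mutant and 7.42 ± 0.57 in wild type (SD, n = 3 each). Of the 5 genes it moved most when that array was left out, to 0.95, and was 1.27 with mutant replicates 2 and 3 averaged.

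For nlp-27, at the end of the cluster, the intensity was 168, 209 and 194 on mutant replicates 1, 2 and 3, against 113, 84.3 and 111 on wild type replicates 1, 2 and 3. Its lowest wild type array was replicate 2, unlike the other 4 genes, for which replicate 3 was lowest. The difference was 0.90 ± 0.19 (log2 ± SE), from means of 7.57 ± 0.16 in the mutant and 6.67 ± 0.24 in wild type (SD, n = 3 each). It was 0.96 without wild type replicate 3 and 0.85 with mutant replicates 2 and 3 averaged.

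For nlp-31, whose peptide has been reported to act against fungi, the intensity was 2449, 2227 and 2309 on mutant replicates 1, 2 and 3, against 1398, 1434 and 1043 on wild type replicates 1, 2 and 3. The mutant arrays spanned 1.1-fold, the smallest spread among the 5 genes in that group. The difference was 0.86 ± 0.18 (log2 ± SE), from means of 11.18 ± 0.07 in the mutant and 10.32 ± 0.26 in wild type (SD, n = 3 each). It was 0.72 without wild type replicate 3 and 0.88 with mutant replicates 2 and 3 averaged.

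Within a genotype the 5 genes did not follow 1 common order of arrays. Among the mutant arrays replicate 1 was lowest for nlp-27, nlp-29 and nlp-30, replicate 2 was lowest for nlp-28 and nlp-31, and replicate 1 was highest for nlp-31. The median deviation of the 5 features from their means over all 6 arrays was 0.51, 0.59 and 0.77 log2 units on mutant replicates 1, 2 and 3, against -0.35, -0.69 and -0.82 on wild type replicates 1, 2 and 3. All 5 features carry the suffix x, which 5.44% of tested features have. In Affymetrix naming this suffix marks a set of probes some of which may also match other transcripts, and the cluster genes resemble each other in sequence. Signal shared between the 5 features was not tested.

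In chromosomal order the measured genes are nlp-31, nlp-30, nlp-29, nlp-28 and nlp-27, with nlp-34 before nlp-31 and 0 other protein-coding genes between them in the RefSeq table. Along this order the log2 differences were 0.86, 1.50, 2.28, 1.28 and 0.90, highest at nlp-29, the middle of the measured genes. With all arrays the value was lower at each step away from nlp-29. Without wild type replicate 3 the step from nlp-28 to nlp-27 was absent, with differences of 0.95 and 0.96. Of the 10 nearest genes on each side 17 have a feature, and 1 of these rose past the limma threshold and 0 fell (1 of the 17 had an unadjusted p under 0.05). For comparison, 0.124% of all features rose and 0.00443% fell. At an unadjusted limma p under 0.05, 6.23% of all features were higher and 3.97% lower. The median log2 difference of the 17 was -0.20, and 2 of them were above 0. Apart from the 1 that rose, these features were dim, with intensities of 11.6 to 107 over all arrays. A change in genes measured at so low a level could be missed.

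The nearest genes on the nlp-34 side are the chemoreceptor genes str-83, at -0.10 ± 0.16 (log2 difference ± SE), and str-82, at -0.36 ± 0.27. For str-83 the intensity was 15.96, 16.7 and 15.8 on the mutant arrays, against 15.6, 17.2 and 19.4 on the wild type arrays. Nearest on the nlp-27 side are K09D9.9, at -0.35 ± 0.27, and the chemoreceptor gene srx-62, at -0.37 ± 0.23. In these 4 genes the groups overlapped. The neighbour that rose is the outermost of the 10 on the nlp-27 side, K09D9.1, with intensities of 140, 177 and 192 on the mutant arrays, against 30.02, 23.1 and 23.6 on the wild type arrays. Its groups were well apart, and it was 6.62-fold higher in the mutant (limma adjusted p = 0.0125). Leaving out mutant replicate 1, 2 or 3 or wild type replicate 3 gave it adjusted p of 0.0559, 0.0973, 0.106 and 0.0795. The 9 genes between it and the cluster have 7 features, with log2 differences from -0.38 to 0.11.

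**Figure D2:**
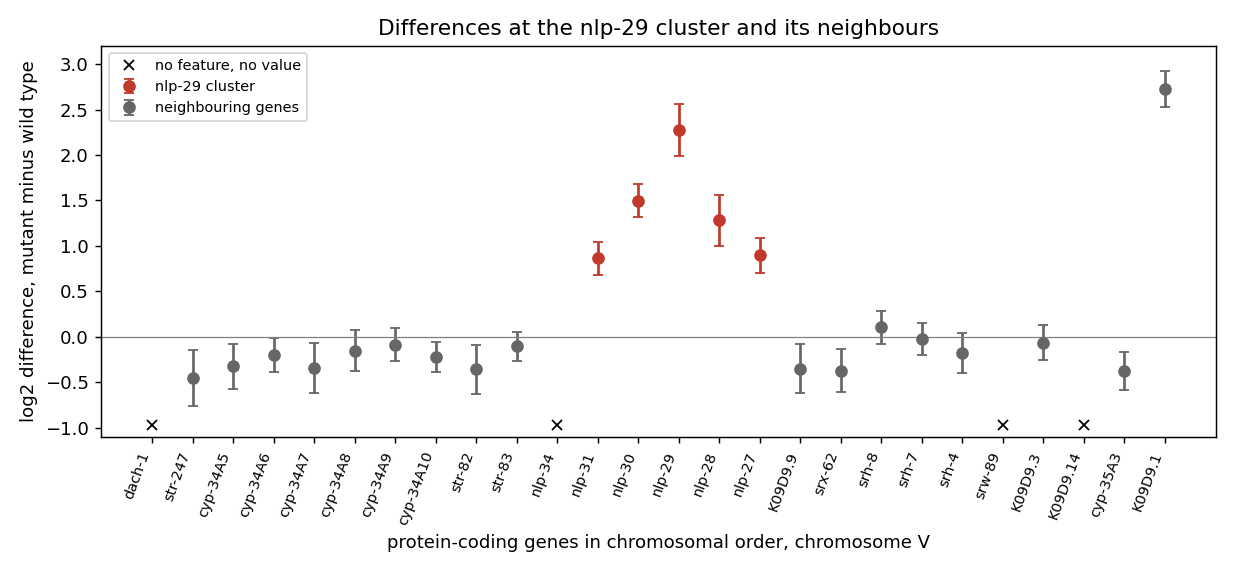
Log2 difference, mutant minus wild type, with its standard error, for the cluster genes (red) and the 10 nearest protein-coding genes on each side (grey) in chromosomal order, crosses marking genes with no feature. The cluster genes lie between 0.86 and 2.28, their nearest measured neighbours between -0.37 and -0.10, and K09D9.1 at the right end is at 2.73. The neighbours other than K09D9.1 are dim, with intensities of 11.6 to 107 over all arrays.

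The nlp genes of the same number range that lie elsewhere, nlp-24, nlp-25, nlp-26, nlp-32 and nlp-33, encode similar peptides. None of the 5 passed the limma threshold (0 higher and 0 lower, and 0 at an unadjusted p under 0.05), and their median log2 difference was 0.17. The gene nlp-33, which is also known as an epidermal response gene, had intensities of 733, 1169 and 1400 on mutant replicates 1, 2 and 3, against 754, 754 and 286 on wild type replicates 1, 2 and 3. The groups overlapped, since mutant replicate 1 lay below wild type replicates 1 and 2. Its difference was 0.96 ± 0.42 (log2 ± SE, limma adjusted p = 0.496). Intensities of the other 4 lay between 16.8 and 95.3 over all arrays, with differences from -0.03 to 0.17.

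Caenacins and fungus-induced peptides are the other antimicrobial peptide families of the epidermis. Of 48 listed genes 23 have a feature, of which 1 rose and 0 fell past the threshold, while 9 were higher and 0 lower at an unadjusted limma p under 0.05. Over all features those unadjusted shares were 6.23% higher and 3.97% lower. The median log2 difference of the 23 was 0.13, in a range from -0.37 to 2.51. Many of the 23 were dim on all arrays, and the gene at the median, cnc-2, had intensities of 25.9 to 32.2. The median therefore says little about the brighter genes of the list. In 11 of them the mutant arrays were all above the wild type arrays and in 2 all below, where 6.16% and 9.37% of all features were so separated.

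The gene that rose was fipr-2, with intensities of 195, 274 and 206 on the mutant arrays, against 49.1, 41.9 and 44.7 on the wild type arrays, a difference of 2.30 ± 0.19 (log2 ± SE, limma adjusted p = 0.0128). Without mutant replicate 1, 2 or 3 or wild type replicate 3 its adjusted p was 0.0688, 0.106, 0.106 and 0.0906. The caenacin gene cnc-4 had 2064, 1879 and 1996 on the mutant arrays, against 588, 179 and 397 on the wild type arrays. Its groups were far apart but the wild type arrays scattered widely, and its difference of 2.51 ± 0.39 had an adjusted p of 0.0888. Differences of 1.02 ± 0.21 for cnc-8 and 1.37 ± 0.33 for fipr-26 had adjusted p of 0.177 and 0.254. In adult worms the gene cnc-2 depends on TGF-beta signalling instead of the p38 module. Here it differed by 0.13 ± 0.16 (limma adjusted p = 0.719). Its feature, also of suffix x, was dim, at 25.9 to 32.2 over all arrays, so a change in this gene could be missed.

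The genes reported to switch the cluster on or hold it down were next examined by role. Of 26 listed genes 25 have a feature, and the STAT-like factor gene sta-2 has none. By limma 0 of the 25 rose and 0 fell past the threshold, where 0.124% and 0.00443% of all features did. At an unadjusted p under 0.05 there was 1 higher and 1 lower, beside 6.23% and 3.97% of all features. Their median log2 difference was 0.14, beside -0.10 for all features, and 14 of the 25 were above 0. In 1 of them, osm-11, every mutant array was above every wild type array, and in 1, akir-1, every mutant array was below. Over all features 6.16% and 9.37% were so separated. A p that misses the threshold does not show that a gene was alike in both groups, and the standard errors below give the precision.

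At the start of the pathway dcar-1 encodes the receptor for a damage-linked ligand, and its intensity was 499, 396 and 308 on mutant replicates 1, 2 and 3, against 507, 299 and 469 on the wild type replicates. The groups overlapped fully, with a difference of -0.07 ± 0.27 (log2 ± SE). The G protein alpha subunit gene gpa-12 had 190.5, 215 and 245 on the mutant arrays, against 182, 211 and 77.9 on the wild type arrays. Only wild type replicate 3 was low for it, and the difference was 0.58 ± 0.36 (limma adjusted p = 0.582). The scaffold gene rack-1 differed by -0.31 ± 0.21, the phospholipase C genes egl-8 and plc-3 by 0.21 ± 0.25 and 0.20 ± 0.17, and the protein kinase C gene tpa-1 by 0.14 ± 0.31.

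The pseudokinase gene nipi-3, needed for nlp-29 to respond to infection, had 526, 687 and 716 on the mutant arrays, against 582, 480 and 468 on the wild type arrays. Mutant replicate 1 fell inside the wild type range, and the difference was 0.33 ± 0.19 (limma adjusted p = 0.568). A second pseudokinase gene, nipi-4, which helps keep up the basal level of the peptide genes, differed by -0.09 ± 0.19. These 8 upstream genes had a median difference of 0.17, with 0 past the threshold in either direction and 0 at an unadjusted p under 0.05.

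The p38 module runs from the adaptor TIR-1 through the kinases NSY-1 and SEK-1 to the p38 kinase PMK-1. For pmk-1 the intensity was 403, 388 and 467 on the mutant arrays, against 210, 505 and 159 on wild type replicates 1, 2 and 3. Wild type replicate 2 was above every mutant array while the other 2 wild type arrays were far below, and the difference was 0.70 ± 0.40 (limma adjusted p = 0.560). The kinase gene nsy-1 had 442, 761 and 920.1 on the mutant arrays, against 499, 884 and 394 on the wild type arrays. It varied more within a genotype, with log2 SDs of 0.55 in the mutant and 0.60 in wild type, than the group means differed. Its difference was 0.28 ± 0.37, and those of tir-1 and sek-1 were 0.22 ± 0.23 and -0.04 ± 0.24. The median of the 4 was 0.25, with 0 past the threshold and 0 at an unadjusted p under 0.05.

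Among the factors that act on the peptide genes in the nucleus or with STA-2, 0 of 5 measured genes passed the threshold, with 1 higher and 1 lower at an unadjusted limma p under 0.05. The akirin gene akir-1, a nuclear cofactor needed for the cluster's induction, had 1855, 2334 and 2088 on the mutant arrays, against 2660, 2917 and 3786 on the wild type arrays. Every mutant array was below every wild type array, opposite to the cluster genes, as were 9.37% of all features. The difference was -0.57 ± 0.19 (limma adjusted p = 0.441). The POU homeobox gene ceh-18, whose product has been found with akirin, had 104.3, 166 and 159 on the mutant arrays, against 116, 90.1 and 49.5 on the wild type arrays. Mutant replicate 1 lay below wild type replicate 1, and the difference was 0.81 ± 0.34 (adjusted p = 0.487). The GATA factor gene elt-3, which is needed for full expression in the epidermis, differed by -0.31 ± 0.18, the transporter-like gene snf-12, whose product binds STA-2, by -0.03 ± 0.16, and the bZIP factor gene cebp-1 by -0.18 ± 0.16.

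Of the 8 genes that hold the response down or belong to the salt response, 0 passed the threshold and 0 had an unadjusted p under 0.05, and their median difference was 0.11. The MAP kinase phosphatase gene vhp-1, an inhibitor of p38 and JNK signalling, had 439, 696 and 627 on the mutant arrays, against 571, 317 and 271 on the wild type arrays. Mutant replicate 1 lay inside the wild type range, and the difference was 0.65 ± 0.31 (limma adjusted p = 0.516). Loss of the kinase gene dapk-1 or of the mucin-like gene osm-8 is known to raise nlp-29, and these genes differed by -0.14 ± 0.23 and 0.07 ± 0.16. The patched-related gene ptr-23, which acts with osm-8, differed by 0.15 ± 0.20.

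The genes osm-7 and osm-11, whose products restrain the salt response, differed by 0.20 ± 0.27 and 0.29 ± 0.19. The salt-responsive genes gpdh-1, for glycerol synthesis, and hmit-1.1, for a myo-inositol transporter, differed by -0.38 ± 0.34 and -0.09 ± 0.68. For hmit-1.1 the intensity was 149, 109 and 114 on the mutant arrays, against 431, 101 and 51.1 on wild type replicates 1, 2 and 3, so that its wild type arrays differed more among themselves than the groups did.

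**Figure D3:**
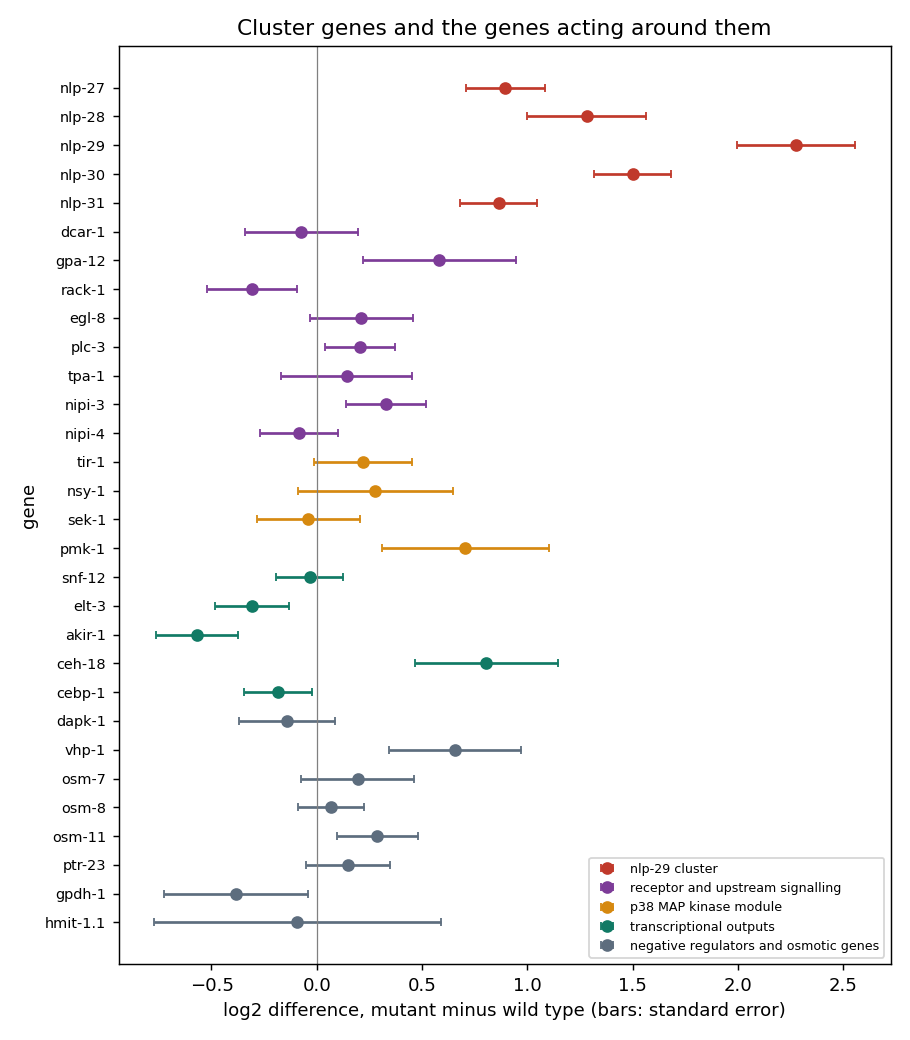
Log2 difference, mutant minus wild type, with its standard error, for the 5 cluster genes (red, top) and 25 genes listed by their role around them. The cluster genes lie between 0.86 and 2.28, and the others between -0.57 (akir-1) and 0.81 (ceh-18).

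The furrow collagens are the cuticle proteins whose loss is known to raise nlp-29. Of the 6 genes 0 passed the threshold, 2 were higher and 0 lower at an unadjusted limma p under 0.05 (6.23% and 3.97% of all features), and the median difference was -0.09. The 2 were dpy-9, with 483, 323 and 305 on the mutant arrays, against 132, 94.95 and 130 on the wild type arrays, and dpy-8, with 223, 166 and 182 on the mutant arrays, against 88.8, 48.1 and 95.7 on the wild type arrays. Both were higher on every mutant array, as were 6.16% of all features, with differences of 1.63 ± 0.24 and 1.35 ± 0.28 (adjusted p = 0.0725 and 0.194). The other 4 overlapped between the groups, with differences from -0.39 for dpy-3 to 0.10 for dpy-10, and -0.35 ± 0.20 for dpy-7.

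The matrix that covers the embryonic epidermis before the cuticle was represented by 8 measured genes of 9 listed, with 0 past the threshold, 0 at an unadjusted p under 0.05 and a median of -0.18. The smallest p belonged to sym-1 (-0.33 ± 0.18), noah-2 (-0.29 ± 0.18) and lpr-3 (-0.31 ± 0.20), whose products are part of that matrix.

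Markers of the epidermis itself were set beside the cluster. Of 10 measured markers of 11 listed, 0 passed the threshold, and the median was 0.21. The cuticle collagen gene rol-6 (0.49 ± 0.21) was the 1 marker higher at an unadjusted limma p under 0.05, as were 6.23% of all features. It was also the 1 marker with every mutant array above every wild type array, as were 6.16% of all features. The summed intensity of the 10 was between 27646 and 27769 on the mutant arrays, against 27093 to 38239 on the wild type arrays. Most of that sum was the collagen gene sqt-3, at 19161, 18212 and 18168 on the mutant arrays, against 18268, 17652 and 28394 on the wild type arrays. The list's median deviation was -0.23, 0.15 and 0.11 on mutant replicates 1, 2 and 3, against -0.05, 0.12 and -0.20 on wild type replicates 1, 2 and 3. By this median mutant replicate 1 was the lowest array, and by the sum wild type replicate 1 was. The part of epidermal cell number in the cluster's levels was not tested.

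Other tissues and sources of RNA gave 0 markers past the threshold in either direction. Maternal and germline markers had a median of -0.42 in 12 genes, 1 of them above 0, with 3 lower and 0 higher at an unadjusted limma p under 0.05, where all features had 3.97% lower and 6.23% higher. In 2 of the 12 every mutant array was below every wild type array, as in 9.37% of all features. The 3 with the smallest p were the eggshell gene cpg-2 (-1.14 ± 0.24), the yolk receptor gene rme-2 (-0.58 ± 0.22) and the germline factor gene pie-1 (-0.68 ± 0.29). Their summed intensity was 15265 to 16587 on the mutant arrays, against 21002, 15845 and 28091 on wild type replicates 1, 2 and 3. By this sum wild type replicate 2 lay within the mutant range, although for cpg-2 it was at 739, above the 368 to 449.98 of the mutant arrays. The part of maternal RNA or of embryo stage in the cluster's difference was not tested.

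Muscle markers had a median of 0.15 in 6 genes, pharynx markers 0.25 in 5 and intestine markers -0.11 in 8. Of the muscle markers 1 was lower at an unadjusted limma p under 0.05, hlh-1 at -0.42 ± 0.17, as were 3.97% of all features. In 1 muscle and 1 intestine marker every mutant array was below every wild type array, as in 9.37% of all features. Neuron markers had a median of 0.37 in 9 genes, 5 above 0 and 4 below, from -0.28 to 0.87. The 3 with the smallest p were unc-104 (0.72 ± 0.31), egl-3 (0.81 ± 0.37) and rab-3 (0.37 ± 0.17). In 1 of the 9, rab-3, every mutant array was above every wild type array, and in 1 every mutant array was below. Over all features 6.16% and 9.37% were so separated. Muscle and pharynx markers were lowest on mutant replicate 1, with median deviations of -0.64 and -0.69, and were at 0.48 and 0.17 on mutant replicate 2. The cluster's own median deviations on these 2 arrays were 0.51 and 0.59. Sperm markers had a median of -0.23 in 6 genes and summed to 158 to 182 on the mutant arrays, against 175 to 264 on the wild type arrays. Adult body markers, the yolk proteins and col-19, had a median of -0.29 in 7 genes and summed to 284 to 307 on the mutant arrays, against 273 to 480 on the wild type arrays.

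**Figure D4:**
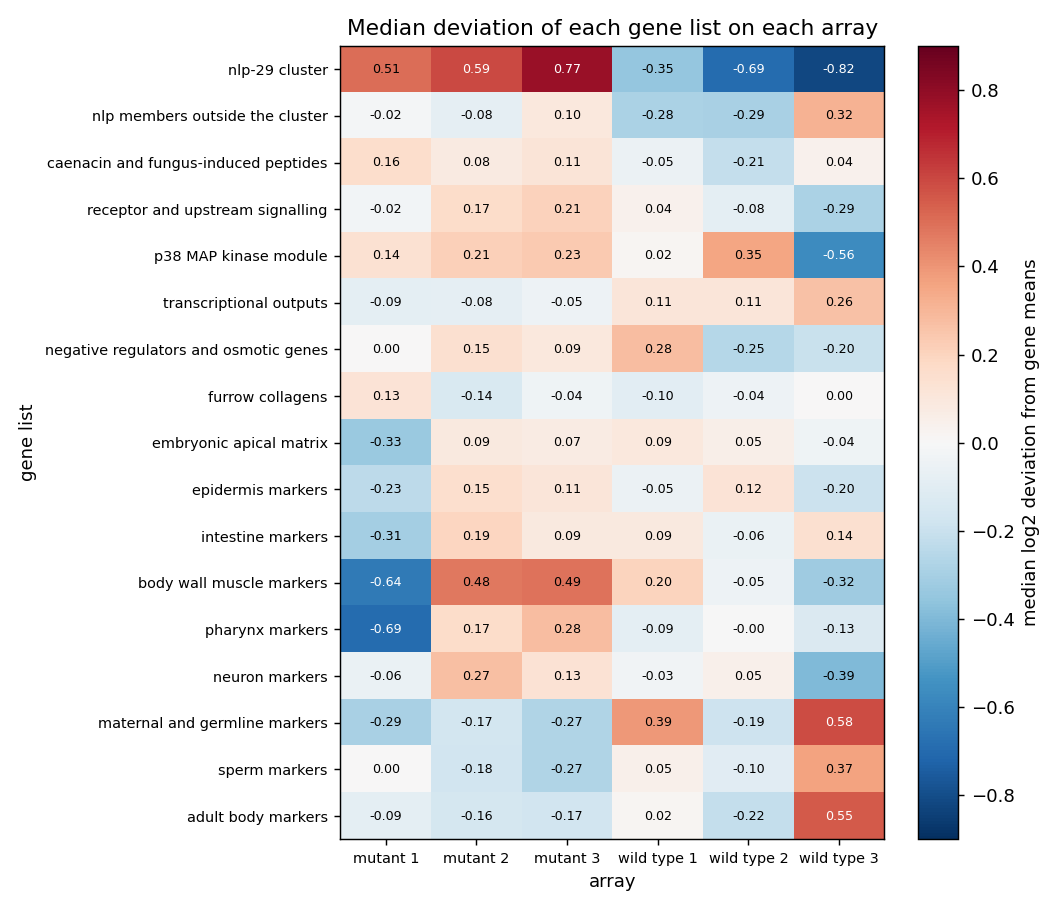
Median log2 deviation of each gene list from its gene means on each array, mutant arrays left of wild type arrays. The cluster (top) is at 0.51 to 0.77 on the mutant arrays and at -0.82 to -0.35 on the wild type arrays, while muscle and pharynx markers are lowest on mutant replicate 1 and maternal markers highest on wild type replicates 1 and 3.

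Finally, the features with the profile most like that of nlp-29 were sought by the root mean square distance between mean-centred log2 profiles over the 6 arrays, among features that name 1 gene outside the cluster. The profile of nlp-29 was 1.01, 1.15 and 1.25 on mutant replicates 1, 2 and 3, against -0.64, -1.02 and -1.75 on wild type replicates 1, 2 and 3. Closest was C06B3.6, also on chromosome V, at a distance of 0.09 log2 units, with intensities of 636, 806 and 838 on the mutant arrays, against 239, 162 and 110.5 on the wild type arrays. It shares the order of nlp-29 on all 6 arrays, lowest on wild type replicate 3 and highest on mutant replicate 3.

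Next came phat-8, of a family named after toxin-related proteins of the pharyngeal gland (distance 0.19), the beta-tubulin gene tbb-6 (0.23), F25H5.8 (0.25), the body size regulator gene lon-1 (0.27) and the transthyretin-related genes ttr-51 (0.28), ttr-21 (0.29) and ttr-23 (0.30). Of these 8 genes lon-1 and ttr-21 passed the limma threshold, with adjusted p of 0.141 and 0.120 without wild type replicate 3 and between 0.109 and 0.216 without any 1 mutant array, and all 8 had every mutant array above every wild type array, which the choice by likeness makes likely. The members of the cluster were farther from nlp-29 than these. The distance was 0.50 for nlp-30, 0.52 for nlp-28, 0.74 for nlp-31 and 0.79 for nlp-27, and 56 features outside the cluster were at least as close to nlp-29 as nlp-30 was. The distance takes in the size of the difference, so members with a smaller difference are farther away by construction.

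**Figure D5:**
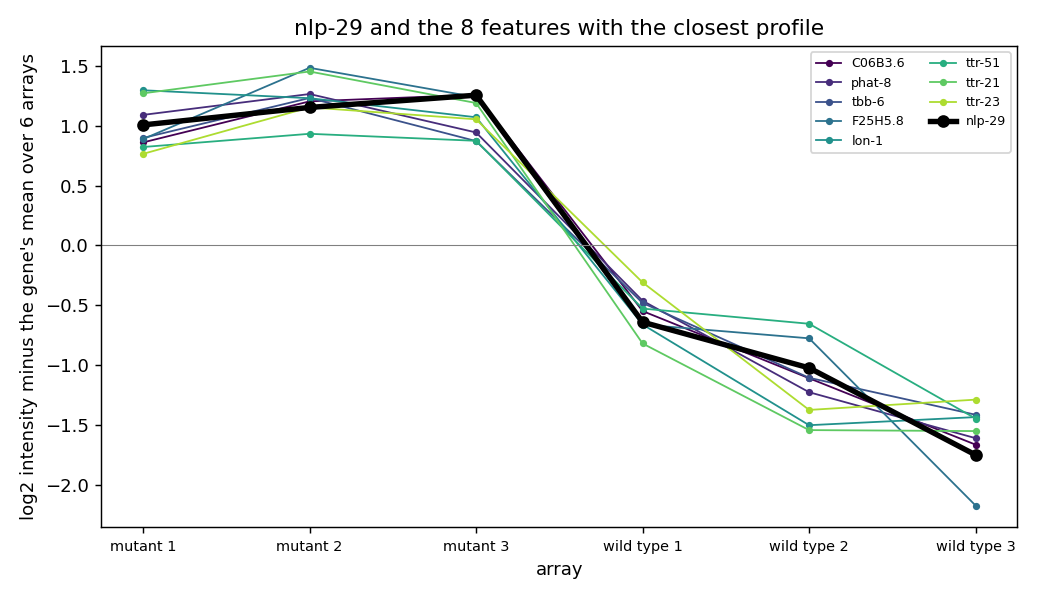
Log2 intensity minus the gene's mean over the 6 arrays, for nlp-29 (black) and the 8 single-gene features closest to it (colours), mutant arrays left of wild type arrays. The nlp-29 profile is at 1.01 to 1.25 on the mutant arrays and at -1.75 to -0.64 on the wild type arrays, and C06B3.6 follows it within a root mean square distance of 0.09.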

How the data were processed

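Total RNA of 3 mir-35-41(nDf50) and 3 wild type embryo samples was measured on Affymetrix arrays. The deposited linear table gives intensities already normalized by the authors, 1 for each probe set and array, and the deposited series value table gives their log2 (largest difference 5.63e-06). Affymetrix Expression Console is named per the submitters' processing notes, and how it corrected background, normalized and summarized probes is not stated in these sources. Array number, 3 per group, limits the precision.

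Log2 of the linear intensity was fitted with limma 3.58.1 in R 4.3.3 (lmFit, eBayes, two-sided, no covariate) over 22548 features, after 77 controls were left out, with Benjamini-Hochberg adjustment over all features at 0.05. Differences are mutant minus wild type. The fit was tested on simulated data. Names and gene order come from RefSeq (WBcel235), with 16045 features matched through the symbol, 3566 through the sequence name and 1254 left under the file's name. For a list gene with several features, the brightest on average among those naming it alone was taken. The cluster, the lists and the alternatives were chosen with earlier results of these data known. Named genes are the cluster, all genes of the 4 regulator lists, members of other lists past the threshold and up to 3 with the smallest p, the 2 nearest neighbours on each side and any past the threshold, and the 8 features most like nlp-29; cnc-2, dpy-3, dpy-7 and dpy-10 were named after their values were seen.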

Additional observations from a re-analysis of the deposited data

How the results depend on the processing

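The log2 differences of the 5 cluster genes stayed positive and within 1 SD between replicates of the reported value under all 14 alternatives, from 1.97 to 2.52 for nlp-29, 1.37 to 1.65 for nlp-30, 0.95 to 1.46 for nlp-28, 0.72 to 0.98 for nlp-27 and 0.72 to 0.96 for nlp-31. With arrays left out or averaged that direction was fixed, since the groups do not overlap. With 3 arrays per group, such a change also could not reach 1 SD. The replicate block, the series value table, the filter on dim features and the trend and robust prior leave the difference itself unchanged. Only quantile normalization again, centring and adding 16 were free to move a difference further. The calls did depend on the processing. Beside the reported 2 of 5 cluster features, leaving out 1 array gave between 0 and 4: 0 without mutant replicate 1, 2 or 3 or wild type replicate 3, 1 (nlp-29) without wild type replicate 1, and 4 without wild type replicate 2. It was 0 with the replicate block, 0 after quantile normalization again, 0 with 16 added before log2, 1 with an intensity trend and robust prior, and 0 with mutant replicates 2 and 3 averaged. Over all features the reported 29 became 0 to 1289 with 1 array left out, 19 with the replicate block, 3 after quantile normalization again, 8 with 16 added, 50 after centring, 46 with the trend and robust prior, and 0 with mutant replicates 2 and 3 averaged. Among listed pathway and effector genes the reported 1 became 0 to 5 with 1 array left out, 2 after centring, 3 without dim features, 2 with the trend and robust prior, and 0 with mutant replicates 2 and 3 averaged. The causes were not tested. The labels do not say whether same-numbered arrays of the 2 groups belong together. Their deviations from the group means correlated at -0.03, 0.07 and -0.18, which with so few arrays cannot show whether they were paired. All 5 cluster features lie above the median mean level, so the filter on dim features keeps them.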
